A study of Mus musculus with 7 samples.

Results

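Accessible regions of inhibitory neurons whose sequence is not conserved among placental mammals were examined in mouse cortex. A region was taken when its MeanCons, the mean placental phyloP score over its bases, was below 0 and at least 60 ATAC-Seq reads fell on it over the 6 SST, PV and VIP samples. Of 323369 reference regions, 70722 had MeanCons below 0, and 6280 of these reached 60 reads. These 6280 nonconserved regions made up 21.2% of the 29682 regions with at least 60 reads. They were chosen by 2 measured values, the conservation score and the summed reads, so neither is a result here. The 5924 regions with MeanCons above 0.5 and at least 60 reads served for comparison, and are called conserved below. A further 167 regions with 60 reads had a MeanCons of exactly 0, which marks a missing or balanced score, and belonged to neither class.

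The study measured open chromatin to find short gene regulatory elements (GREs) that are active in a single class of cortical interneuron. Nuclei came from whole cortex of mice aged 6 to 12 weeks, with 2 samples for each class and every replicate from a single animal. SST samples were from Sst-IRES-Cre mice, PV samples from Pv-Cre mice and VIP samples from Vip-IRES-Cre mice, each crossed to SUN1-2xsfGFP-6xMYC, which puts a GFP-tagged nuclear envelope protein into cells that express Cre, and none had been injected with virus. The labels call every sample male, whereas the methods name both sexes, and a sample holds any cell that ever expressed the driver.

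ATAC-Seq uses a transposase that cuts DNA where chromatin is open, so reads gather at promoters, enhancers and insulators. A phyloP score compares the substitutions seen in an alignment with those a neutral sequence would gather, and is negative where a base has changed faster than neutral. Coding exons and many developmental enhancers score high, while enhancers are known to turn over quickly between mammals. SST interneurons mainly contact dendrites, PV interneurons contact the soma and axon start, and VIP interneurons mainly inhibit other interneurons.

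The 3 classes were first checked at the genes that name them, by the scaled reads of all reference regions in or within 10 kb of the start of each gene. At Sst, the somatostatin gene, SST samples had 71.6 and 78.8 counts scaled for depth (TMM-scaled CPM) against 31.8 to 48.1 elsewhere. At Pvalb, which encodes parvalbumin, PV samples had 45.2 and 59.8 against 18.4 to 25.4, and at Vip, VIP samples had 22.5 and 27.6 against 4.17 to 6.99. Over the lists for other cells, the summed level at 9 excitatory genes was 704 and 719 in SST, 681 and 772 in PV, and 711 and 654 in VIP. At 11 glial and vessel genes it was 722 and 710 in SST, 660 and 776 in PV, and 731 and 709 in VIP. Single genes of that list moved both ways in VIP. P2ry12 of microglia had 7.49 and 10.2 in VIP against 36.1 to 55.8 elsewhere, and Olig1 of oligodendrocytes 7.49 and 9.61 against 17.4 to 22.2. Aldh1l1 of astrocytes had 171 and 162 against 81.3 to 133, and Pdgfra of oligodendrocyte precursors 81.0 and 81.7 against 42.2 to 54.9. Listed genes of the same cell type did not all move together. Cx3cr1 of microglia had 235 and 234 in VIP against 151 to 204, unlike P2ry12. Aqp4 of astrocytes had 6.81 and 10.2 against 10.4 to 17.4, and Gfap 10.2 and 8.41 against 9.73 to 15.7. Among oligodendrocyte genes, Mbp was low like Olig1, with 162 and 164 against 224 to 253. Olig2 had 8.17 and 5.41 against 3.88 to 8.06. No gene on any list was at 0, and the part of other cells in the differences below was not tested. Reads on reference regions ran from 1801883 to 2256073 per sample. SST replicates differed most: the median absolute log2 difference between replicates over the nonconserved regions was 0.48 in SST, 0.28 in PV and 0.28 in VIP.

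Among 13 motifs, the one whose share differed most between nonconserved and conserved regions was the core of the CTCF binding site. CTCF is a zinc finger protein that sits at insulators and loop anchors. The 4 nonconserved introns or intergenic regions with the most reads that hold a match are shown first, then the 2 such conserved regions, each as 60 bases of GRCm38 on the strand of the match, with the match in capitals.
Nonconserved, nearest to Chd2, chr7:73618491-73618550, minus strand: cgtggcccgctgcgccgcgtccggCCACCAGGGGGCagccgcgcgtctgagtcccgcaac
Nonconserved, nearest to Oxgr1, chr14:120138021-120138080, plus strand: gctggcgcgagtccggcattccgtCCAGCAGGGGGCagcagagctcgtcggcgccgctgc
Nonconserved, nearest to Col22a1, chr15:72206115-72206174, plus strand: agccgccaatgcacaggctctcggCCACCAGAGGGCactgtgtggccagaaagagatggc
Nonconserved, nearest to Irx4, chr13:73160384-73160443, plus strand: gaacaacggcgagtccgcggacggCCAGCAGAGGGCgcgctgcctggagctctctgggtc
Conserved, nearest to Creb3l1, chr2:92058596-92058655, minus strand: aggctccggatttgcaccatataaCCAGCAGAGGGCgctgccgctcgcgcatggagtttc
Conserved, nearest to Aco1, chr4:40014727-40014786, minus strand: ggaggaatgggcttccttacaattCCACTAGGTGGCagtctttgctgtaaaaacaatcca

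For each class of interneuron, the nonconserved region furthest above the other classes that holds a match to AP-1, MEF2 or the E-box CAGCTG is shown as 120 bases on the plus strand, with the match in capitals. AP-1 is the dimer of Fos and Jun proteins, here searched as TGANTCA, and MEF2 factors are regulators of neuronal genes. The MEF2 search was loose and allowed C and G among the central bases, as in both MEF2 matches below. A MEF2 match may therefore not be a MEF2 site. The AP-1 search was loose as well, with any base allowed at its centre, and the match below has A there. An AP-1 match may therefore not be an AP-1 site.
SST, AP-1 match, nearest to Mroh5, chr15:73948051-73948170: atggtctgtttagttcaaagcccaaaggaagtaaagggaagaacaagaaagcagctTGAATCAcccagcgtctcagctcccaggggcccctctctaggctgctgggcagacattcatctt
PV, MEF2 match, nearest to Pcbd1, chr10:61001952-61002071: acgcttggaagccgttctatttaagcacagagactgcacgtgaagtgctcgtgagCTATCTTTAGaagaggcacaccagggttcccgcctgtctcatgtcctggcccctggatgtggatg
VIP, MEF2 match, nearest to Irs2, chr8:10957828-10957947: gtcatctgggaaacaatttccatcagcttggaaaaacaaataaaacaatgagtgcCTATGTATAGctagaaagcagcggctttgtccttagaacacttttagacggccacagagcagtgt

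At gene starts the motif that differed most was the ETS core CCGGAAGT, a frequent promoter element. It is shown in capitals in 30 bases of the 3 nonconserved regions with a match and the most reads.
Start of Hjurp, chr1:88277603-88277632, minus strand: tctcgtttccaCCGGAAGTgctccctggga
Start of Stpg2, chr3:139205643-139205672, plus strand: cggagccagagCCGGAAGTtcaggcggcta
Start of Dhodh, chr8:109608617-109608646, plus strand: ggaggaggcttCCGGAAGTctcgagtgggg

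Nonconserved regions lay less often at gene starts and in exons than conserved regions, and more often in introns and at moderate distances from genes. To compare regions of equal reads, conserved regions were weighted so that their 10 strata of summed reads had the shares of the nonconserved regions. Regions within 1 kb of the start of a protein-coding gene were 40.7% of the nonconserved and 46.1% of the conserved regions. Exons beyond that distance held 9.36% against 21.1%, and coding sequence is itself conserved. Introns held 24.3% against 13.7%, or 1525 nonconserved regions. Intergenic regions up to 100 kb from a start held 19.8% against 8.35%, and those further away 5.91% against 10.8%. These are shares over regions of a single genome, with no replicates and no test.

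**Figure D1:**
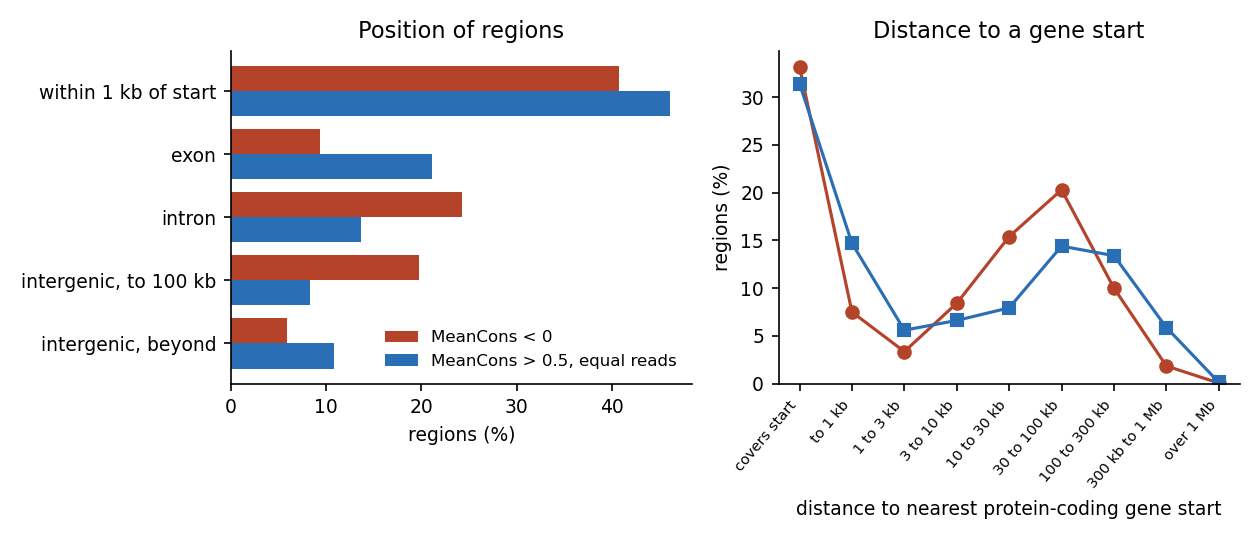
Left, percent of regions by position for nonconserved regions (red) and conserved regions weighted to equal reads (blue). Right, percent of regions by distance to the nearest protein-coding gene start, from regions that cover a start to those over 1 Mb away; the nonconserved regions lead from 3 to 100 kb and trail from 100 kb to 1 Mb.

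With a single start taken per gene, the difference lay beside the start and not on it. A gene start fell inside 33.2% of the nonconserved and 31.4% of the conserved regions, whereas 7.50% against 14.7% lay within 1 kb without covering it. With the starts of all coding transcripts the shares within 1 kb were 45.6% against 56.8%. How many regions cover one of those starts was not counted. Between 10 and 30 kb the shares were 15.4% and 7.94%, and between 300 kb and 1 Mb they were 1.85% and 5.88%. Among regions beyond 1 kb, the median distance was 34730 bp for 3726 nonconserved regions and 55768 bp for conserved regions. The share at starts rose with reads in both classes, from 11.7% to 86.3% of nonconserved and from 19.9% to 87.0% of conserved regions between 60 to 69 reads and 1000 or more. At 500 to 999 reads the order was turned, with 85.1% against 83.0%.

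In base composition the nonconserved regions were less rich in GC and CpG. The median GC content was 54.5% against 58.1% at equal reads, and the CpG observed over expected ratio was 0.439 against 0.594. The middle of the GC distribution was narrower too, with the 10th and 90th percentiles at 47.5% and 64.2% against 44.7% and 69.8%. Their median width was 814 bp against 803 bp. Bases in lower case in the reference sequence, which marks repeats and simple sequence, made up a median of 6.89% of a nonconserved and 8.17% of a conserved region, and 12.1% over all reference regions. At least 50% of the bases were so marked in 6 of the 6280 regions. Nonconserved regions were thus not mainly made of marked repeats.

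By chromosome, nonconserved regions were 11.5% of the regions with 60 reads on X, with 72 of 627, and between 15.7% on chromosome 19 and 27% on chromosome 15 among autosomes. Of 9 mitochondrial regions 8 were nonconserved. Mitochondrial DNA carries no nucleosomes and is cut by the transposase wherever nuclei carry mitochondria along, so these reads are no measure of chromatin in these cells.

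Motif matches were counted in the central 300 bases of each region, on both strands, for 13 short sequences. The CTCF core was found in 315 nonconserved regions, 5.02%, against 1.10% of conserved regions at equal reads and 1.29% of all reference regions. Beyond 1 kb of a start the shares were 7.86% and 1.48%, and within 1 kb they were 0.861% and 0.660%. Of the 315 regions, 112 lay in introns, 109 within 100 kb of a start, 46 in exons, 26 further away and 22 at starts. The matched bases were marked as repeat in 24 of them, or 7.62%. The match lay on the plus strand in 147.

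The share with a CTCF core fell across the range of conservation, with small steps back, and not only at its end. At the reads of the nonconserved regions it was 6.51% in 231 regions with MeanCons below -0.3 and 4.67% just below 0. It was 4.51% between 0 and 0.1, 1.97% between 0.2 and 0.3, and 0.839% above 1. MeanCons averages over all bases of a region, so a short conserved site can lie inside a region with a negative mean. The median of the highest phyloP score of a single base was 2.40 in nonconserved and 3.04 in conserved regions. It comes from the same scores that chose the classes. The score at the matched bases was not read, so whether CTCF cores are such sites was not tested.

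Other motifs differed less. The ETS core was in 4.78% of nonconserved and 2.12% of conserved regions, and in 10.0% against 4.22% of those within 1 kb of a start. AP-1 matches were in 10.5% against 8.14%. The homeodomain core TAATTA, bound by factors such as the Dlx and Lhx proteins, went the other way, with 2.18% against 3.82%, and 3.03% against 6.37% beyond 1 kb. YY1 matches, searched as AAGATGGCG, were in 1.10% against 1.77%. The E-box CAGCTG was found in 30.5% and 30.6%, and the SP core GGGGCGGGG in 8.84% and 9.43%. A match is a stretch of letters and does not show that a factor was bound.

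Whether these regions differed among the interneuron classes was asked with edgeR's quasi-likelihood test on read counts over all 40338 regions that passed the filter on low counts, at a Benjamini-Hochberg adjusted p of 0.05. Of the 6280 nonconserved regions, 6266 passed the filter. Accessibility differed among SST, PV and VIP in 2842 nonconserved regions, 45.3%, against 44.3% of conserved regions at equal reads. Among all tested regions, which include those under 60 reads, the share was 51.9%. Nonconserved regions thus differed among classes about as often as conserved ones of equal reads. Leaving out 1 sample at a time gave from 1977 nonconserved regions (31.5%), without VIP replicate 2, to 3769 without SST replicate 2, and 31.1% to 59.2% of conserved regions. In each of these fits the class left with 1 sample is assumed to vary like the other classes, so its own spread is not measured. Nonconserved and conserved shares differed by at most 2.3 percentage points in any of these fits.

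Direction was then read from each class of interneuron against the mean of the other 2. In SST, 410 nonconserved regions were higher, 6.53%, beside 8.15% of all tested regions, and 298 were lower, 4.75%, beside 5.41%. Conserved regions of equal reads gave 5.90% and 4.97%. Leaving out either SST replicate raised the share of higher regions in nonconserved and conserved regions alike, the nonconserved share by more. DESeq2's test gave 109 higher nonconserved regions, or 1.74% against 1.98% of conserved regions, which is the opposite order. In PV, 916 were higher, 14.6%, beside 17.1% of all tested, and 825 were lower, 13.1%, beside 11.7%. Conserved regions gave 12.7% and 14.0%. Without PV replicate 1 the PV counts fell to 328 and 288, or 5.22% and 4.59% against 4.48% and 5.42% of conserved regions, and without PV replicate 2 to 506 and 316, or 8.06% and 5.03% against 6.94% and 5.21%. DESeq2's test gave 350 and 345, or 5.57% and 5.49% against 5.05% and 5.96%. Leaving out SST replicate 1 raised them to 1291 and 1437, or 20.6% and 22.9% against 18.3% and 23.4%.

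VIP held most of the calls and the widest gap between classes of conservation. In VIP, 1347 nonconserved regions were higher, 21.4%, beside 24.9% of all tested regions, and 1414 were lower, 22.5%, beside 24.0%. Conserved regions of equal reads gave 24.8% higher and 18.4% lower. In this fit nonconserved regions were split about evenly in VIP, whereas more conserved regions were higher than lower. The even split depended on the fit, with 16.8% of nonconserved regions higher and 6.04% lower without the filter on low counts. The gap kept its direction in each of the 6 fits without a sample. Without VIP replicate 2 it was 15.6% against 17.8% higher and 10.7% against 9.26% lower. Leaving out either VIP replicate lowered both counts of nonconserved regions, that of lower regions the more, so the split was no longer even. Both conserved shares fell in these fits as well.

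**Figure D2:**
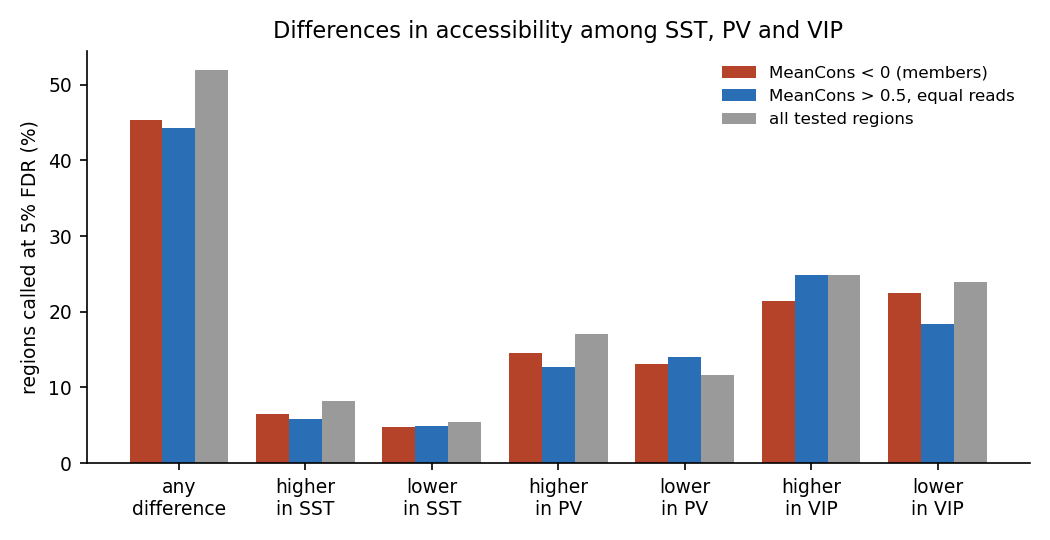
Percent of regions called at a 5% false discovery rate, for any difference and for each direction, in nonconserved regions (red), conserved regions weighted to equal reads (blue) and all tested regions (grey). Red and blue bars nearly coincide for any difference, at 45.3% and 44.3%, and part most in VIP.

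The gap in VIP was widest in the regions with at least 500 reads, most of which are gene starts. For higher regions it was widest at 500 to 999 reads, with 21.6% against 36.3%, and for lower regions at 1000 or more. At 1000 reads or more, 23.1% of 329 nonconserved regions were higher in VIP against 36.6% of 339 conserved regions, and 19.1% against 7.08% were lower. At 60 to 69 reads the values were 21.7% against 18.8% higher, and 22.1% against 19.9% lower. The nonconserved share of lower regions was above the conserved one in each of the 10 strata of reads. Higher regions had no such order below 300 reads, with 18.1% against 22.6% at 100 to 119 reads and 18.3% against 24.3% at 120 to 149, but 22.9% against 21% at 150 to 199 and 21.8% against 20.3% at 200 to 299. Among the 1006 nonconserved regions with at least 500 reads, 22.1% were higher and 22.4% lower, against 36.4% and 12.4%. The fitted log2 difference of VIP from the mean of the other classes had a median of 0.05 in these regions and of 0.26 in conserved ones. Base composition differed as well, with a median GC content of 61.4% and 64.6%. With a correction for GC content, 18.0% against 26.3% were higher and 24.2% against 15% lower. Without each sample in turn the share of lower regions stayed above that of conserved regions, with the narrowest gap at 11.2% against 5.50% without VIP replicate 2. Without the filter on low counts, few regions were called lower, 3.28% against 1.64%.

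**Figure D3:**
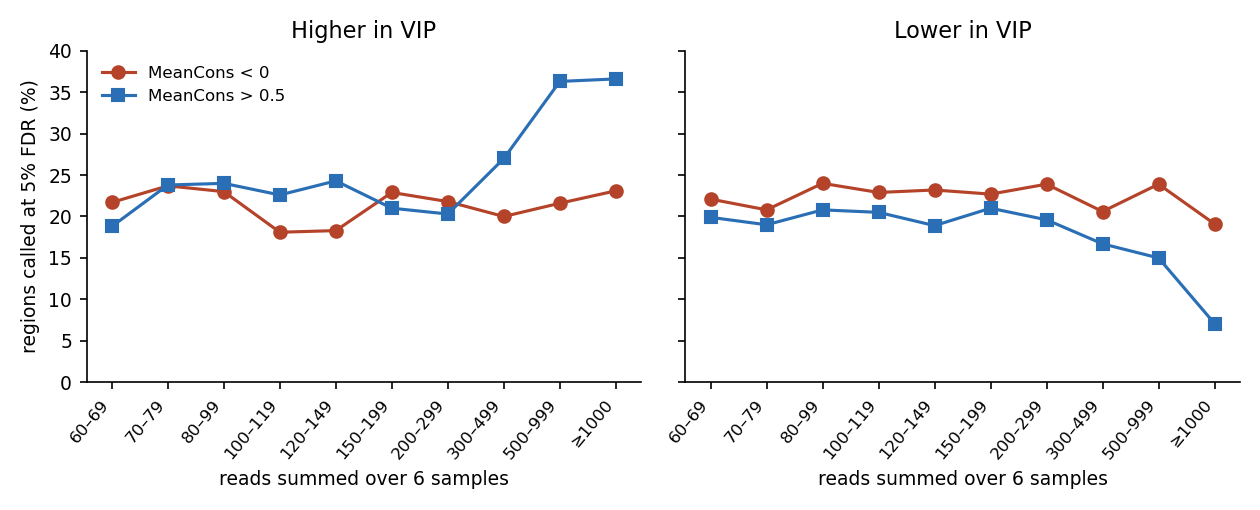
Percent of regions called higher (left) or lower (right) in VIP at a 5% false discovery rate, by the reads summed over the 6 samples, for nonconserved regions (red) and conserved regions (blue). The red lines stay between 18.1% and 24.0%, while the blue ones reach 36.6% higher and 7.08% lower at 1000 reads or more.

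Split by position, the gap in higher regions was found both at and beyond gene starts, and that in lower regions held in every fit without a sample at starts alone. Within 1 kb of a start, 15.8% of 2554 nonconserved regions were higher in VIP and 20.5% lower, against 22.5% and 14.2% of conserved regions at equal reads. Beyond 1 kb the shares were 25.3% and 23.9% against 28.0% and 22.1%. The small gap in lower regions beyond 1 kb rested on VIP replicate 2, without which it was 12.7% against 12.9%. The gap in lower regions was the wider at starts, while for higher regions the widest was in intergenic regions up to 100 kb away, with 22.9% against 36.9% of conserved regions at equal reads. In exons the order of the higher regions was turned, with 22.8% against 19.9%. With the GC correction the shares higher in VIP were 13.9% against 17.5% within 1 kb and 27.3% against 30.5% beyond. In SST, 7 nonconserved regions within 1 kb were lower, 0.274%, against 1.16%. These counts rest on the SST samples, since without SST replicate 1 there were 61, or 2.39% against 3.74%, and without SST replicate 2 there were 67, or 2.62% against 4.04%.

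The reads of each sample were then summed. Of all reads on nonconserved and conserved regions together, the nonconserved held 50.8% and 50.5% in the SST samples, 50.5% and 51.0% in PV, and 48.1% and 47.8% in VIP. Both VIP samples lay below the other 4. VIP was 2.76 percentage points below the others (VIP 47.9% ± 0.193, SD, n = 2; others 50.7%), with p = 0.0667 in a two-sided exact permutation test, the smallest value that 15 splits allow, and p = 0.20 after adjustment over the 3 classes. SST was 1.32 points above the others (p = 0.333) and PV 1.44 points above (p = 0.267) in the same exact test. The direction depends on the denominator. As a share of reads on every reference region, the nonconserved held 14.4% and 15.2% in VIP, 14.9% and 14.6% in SST, and 14.3% and 13.8% in PV. There VIP was 0.40 points above the others and PV 0.70 points below.

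The share of regions that differed among classes varied more with position than with conservation. At starts, 35.5% of nonconserved regions differed among classes, against 34.9% of conserved ones at equal reads. In introns it was 55.4% against 57.9%, and in exons 48.1% against 41.5%. Far from genes it was 65.2% against 67.8%. The widest gap was in intergenic regions up to 100 kb from a start, where 45.6% of 1242 nonconserved regions differed against 60.2% of conserved ones.

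Regions with a CTCF match differed less often among classes. The shares that follow are over regions and carry no test. Of the 315 nonconserved regions with a CTCF core, 85 differed among classes, 27%, against 46.2% of those without. Beyond 1 kb of a start it was 27.6% of 293 against 54.0%, and 26.7% of the 45 conserved regions there. Of the 293, 5 were higher and 2 lower in SST, or 1.71% and 0.683%, against 9.38% and 8.42% of those without, and 2.22% and 0% of the 45 conserved regions. Regions with an AP-1, E-box or homeodomain match beyond 1 kb differed more often than regions without, with 59.8% against 50.6%, 59.0% against 47.4% and 65.5% against 51.5%. Regions with a match to the loose AP-1 search were higher in SST in 13.7% against 7.89%. Regions with a match to the loose MEF2 search were higher in PV in 26.7% of 150 against 16.6%. Homeodomain regions were higher in PV in 30.1% of 113 against 16.6%. Conserved regions beyond 1 kb gave 13.8% for AP-1 in SST, 20.2% for MEF2 in PV and 19.6% for the homeodomain in PV.

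**Figure D4:**
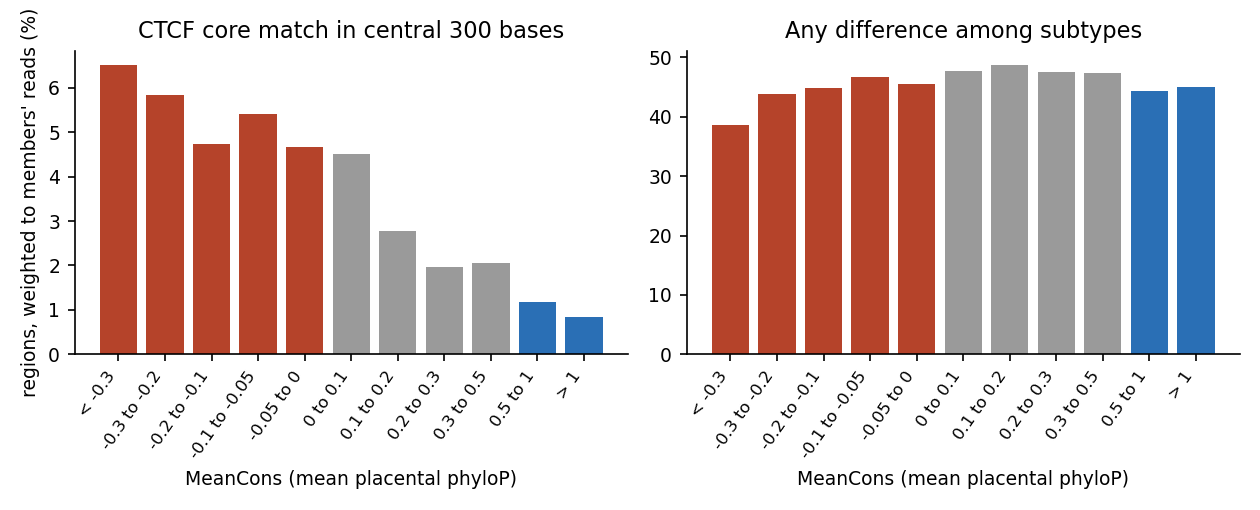
Percent of regions with a CTCF core match in the central 300 bases (left) and with any difference among SST, PV and VIP at a 5% false discovery rate (right), by MeanCons, weighted to the reads of the nonconserved regions. Red bars are nonconserved, blue conserved and grey between; CTCF falls from 6.51% to 0.839%, and the share that differs lies between 38.6% and 48.7%.

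Among the CTCF regions shown above, the one nearest to Chd2 had 155 and 142 reads in SST, 133 and 117 in PV, and 173 and 211 in VIP. VIP was the highest, at 118 and 127 scaled CPM against 88.1 to 111, but the adjusted p of edgeR's test for any difference was 0.197. The region nearest to Oxgr1 had 57 and 139 reads in SST, 64 and 54 in PV, and 83 and 113 in VIP (adjusted p = 0.225), and its SST replicates were the lowest and the highest of the 6 samples once scaled. The other two differed among classes. The region nearest to Col22a1 had 47 and 90 reads in SST, 31 and 33 in PV, and 90 and 142 in VIP (adjusted p = 0.00118). VIP was above both other classes there, at 61.3 and 85.3 scaled CPM against 21.5 to 55.8. The region nearest to Irx4 had 60 and 145 reads in SST, 38 and 27 in PV, and 81 and 76 in VIP (adjusted p = 0.00452). PV was the lowest class there, at no more than 26.4 scaled CPM against 42.9 or more, and both VIP samples lay between the SST replicates.

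As a graded measure, the class of interneuron with the most scaled reads held a median of 44.3% of the 3 class means in nonconserved regions and 44.3% in conserved ones at equal reads; an even region would give equal shares. The 90th percentiles were 64.8% and 65.5%. VIP led in 2496 nonconserved regions, PV in 2081 and SST in 1703, or 39.7%, 33.1% and 27.1%, against 43.3%, 32.5% and 24.2% of conserved regions. At least 75% of the scaled reads were from VIP in 294 nonconserved regions, from SST in 23 and from PV in 22. These were 4.68%, 0.366% and 0.350%, against 4.97%, 0.356% and 0.427% of conserved regions at equal reads. At the even end, the highest of the 6 samples exceeded the lowest by less than 25% in 52 nonconserved regions, or 0.828% against 0.716% of conserved regions at equal reads.

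By the peaks that the authors called in single samples, nonconserved regions were more often shared by all 3 classes than conserved regions. A peak of the sample overlapped between 79.4% and 82.3% of the nonconserved regions, against 74.4% to 77.7% of the conserved regions at equal reads. Peaks in both replicates of all 3 classes overlapped 3705 nonconserved regions, 59.0%, against 51.9%. Peaks in both replicates of VIP and of no other class overlapped 493, or 7.85% against 7.95%. For PV it was 179, or 2.85% against 3.71%, and for SST 157, or 2.50% against 2.33%.

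The regions furthest above in SST were intergenic or intronic. Here and for PV and VIP below, regions were chosen for their difference. All but the PV region chr2:139069450-139070140, with 73 reads in the other 4 samples, reached 60 reads only through the leading class. The selection thus in part fixes their ratios and intervals, which are a description. The regions are given by their reads, since fitted differences against samples near 0 depend on the prior count. Each was called for its class in edgeR's test, as the choice required. The region chr2:171946282-171947148, with Cbln4 as nearest gene, a synapse organiser made by SST cells, had 80 and 130 reads in SST, 23 and 14 in PV, and 1 and 0 in VIP. Its Cbln4 start lay 96318 bp away. Per scaled read SST was 10.8 times the other 4 samples (95% exact interval 7.59 to 15.6, counting error only). Both SST samples lay above PV, and PV above VIP.

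The region chr13:70713979-70714729 had 80 and 88 reads in SST, 8 and 5 in PV, and 4 and 9 in VIP, a ratio per scaled read of 12.6 (8.29 to 19.8). The region chr14:60554125-60554947 had 63 and 75 reads in SST, 4 and 1 in PV, and 7 and 12 in VIP, a ratio of 11.2. In both, PV and VIP were low and SST stood apart. An intron of Prex1, a guanine exchange factor for Rac, held chr2:166642309-166643244, with 25 and 33 reads in SST against 0 to 5 in the other samples. The AP-1 region printed above lies in chr15:73947768-73948682, which had 28 and 43 reads in SST, 8 and 3 in PV, and 0 and 1 in VIP. Of the 6 regions of this set, all beyond 1 kb of a start, 4 hold a match to the loose AP-1 search. The share was 15.3% of nonconserved regions beyond 1 kb and 10.5% of all nonconserved regions. The 6 were chosen by their difference, so this is a description.

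In PV, the region chr10:61001437-61002502, which holds the MEF2 match printed above, had 38 and 51 reads in PV, 5 and 9 in SST, and none in VIP. Per scaled read, PV was 14.3 times the other 4 samples (8.10 to 27.3). The region chr5:111880050-111880828 had 40 and 40 reads in PV, 2 and 2 in SST, and 2 and 0 in VIP, a ratio of 30.0 (13.2 to 84.3). PV stood far above both other classes there.

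The region chr13:23121207-23121996, near the vomeronasal receptor gene Vmn1r217, had 75 and 49 reads in PV, 10 and 16 in SST, and 0 and 1 in VIP. The region chr2:139069450-139070140 was of another kind, with 48 and 38 reads in PV, 35 and 38 in SST, and none in VIP. It was open in PV and SST alike and its ratio per scaled read to the other 4 samples was 2.65 (1.92 to 3.68). An intron of Wdr25 held chr12:108997130-108997984, with 33 and 12 reads in PV, 8 and 15 in SST, and none in VIP, where the lower PV and the higher SST sample were level at 9.32 and 9.31 scaled CPM.

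VIP had the steepest differences. An intron of Htr3a, which encodes an ionotropic serotonin receptor found in VIP cells, held chr9:48903607-48904374, with 37 and 38 reads in VIP, 3 and 3 in SST, and none in PV. Per scaled read, VIP was 22.9 times the other 4 samples (10.0 to 64.3). An intron of Aldh1l1, a gene used as an astrocyte marker, held chr6:90534914-90535636, with 67 and 70 reads in VIP, 1 and 1 in SST, and 1 and 0 in PV. The ratio was 83.6 (28.0 to 410).

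The region chr15:31207171-31207869 had 85 and 89 reads in VIP, 3 and 3 in SST, and 0 and 1 in PV, a ratio of 45.5 (21.6 to 115). The MEF2 region printed above lies in chr8:10957356-10958250, which had 29 and 34 reads in VIP, 1 and 1 in SST, and none in PV, a ratio of 57.7 (15.3 to 487), or 38.4 with the other samples set to a floor of 3 reads. In the 4 VIP regions named here the other 4 samples held 2 to 7 reads in all, so the minimum of 60 reads was met only through VIP.

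**Figure D5:**
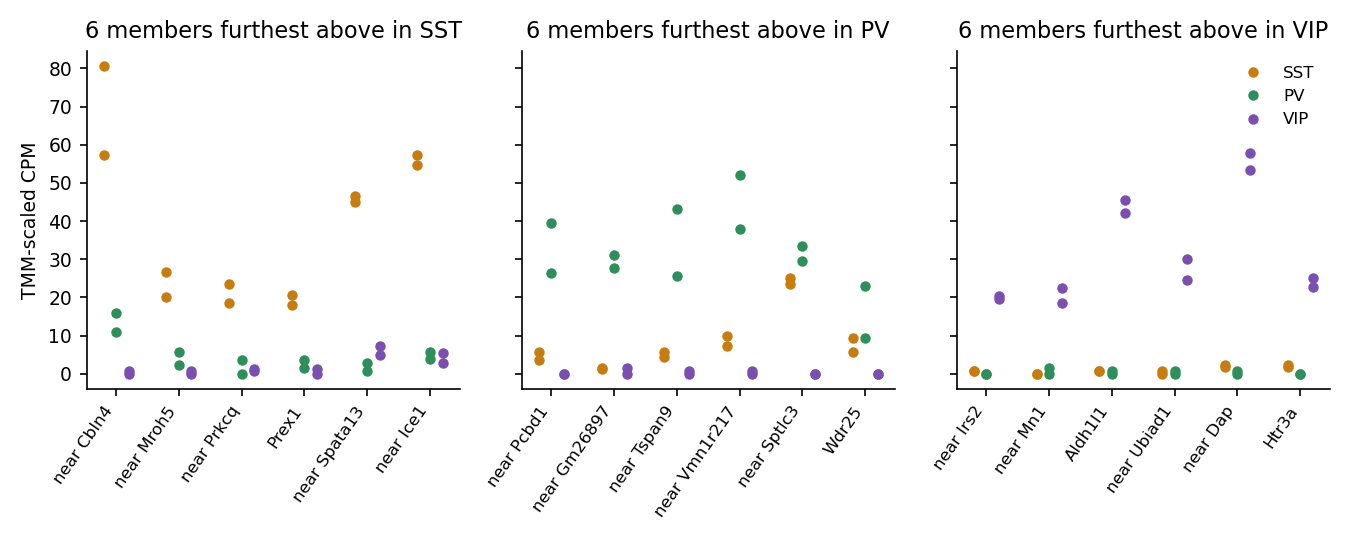
TMM-scaled CPM in each of the 6 samples, SST (orange), PV (green) and VIP (purple), for the 6 nonconserved regions with the largest fitted difference in each class; each dot is 1 sample and labels give the gene around the region or the nearest gene start. In the panels for SST and VIP the leading class stands apart, while in the PV panel the region near Sptlc3 is high in SST too and the lower PV sample of the region in Wdr25 is level with an SST sample.

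The nonconserved regions with the most reads were mitochondrial DNA and promoters of widely used genes. A mitochondrial region, chrM:15306-16068, had 2479 and 2902 reads in SST, 4246 and 2983 in PV, and 2267 and 2258 in VIP. It was called, with PV the highest class (adjusted p = 5.80e-05 in edgeR's test for any difference). Another, chrM:14353-15078 in mt-Cytb, had 296 and 959 in SST, 166 and 1885 in PV, and 492 and 127 in VIP. Replicates of a class differed there by more than the classes did (adjusted p = 0.0734 in edgeR's test for any difference).

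The promoter of Papss1, which makes the sulfate donor of the cell, had 674 and 696 reads in SST, 513 and 488 in PV, and 678 and 819 in VIP, without a call for any difference (adjusted p = 0.0717 in edgeR's test). PV was the lowest class, at 356 and 379 scaled CPM against 432 to 492, and its own contrast passed with a log2 difference of -0.34 ± 0.13 (SE; adjusted p = 0.0477). The promoter of Pcmtd1 had 446 and 615 reads in SST, 436 and 383 in PV, and 585 and 707 in VIP, and VIP was higher by 0.34 ± 0.13 (SE) on the log2 scale (adjusted p = 0.0368, and 0.0518 for any difference). The promoter of Leprot, with a MeanCons of -0.638, had 544 and 419, 488 and 371, and 343 and 479 reads in SST, PV and VIP, and the classes overlapped (adjusted p = 0.309).

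The promoter of Hjurp, a chaperone of the centromeric histone, was lower in VIP. It had 522 and 597 reads in SST, 518 and 418 in PV, and 290 and 317 in VIP. VIP was lower by a fitted log2 difference of -0.88 ± 0.14 (SE; adjusted p = 7.58e-05), and its samples did not overlap with the others. Its ETS core is printed above. The promoter of Aco1, the cytosolic aconitase, had 660 and 301 reads in SST, 723 and 623 in PV, and 202 and 276 in VIP. VIP differed by -1.41 ± 0.25 (SE; adjusted p = 0.00021), while SST replicates lay far apart, at 472 and 187 scaled CPM.

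The lowest MeanCons, -0.865, was that of the mitochondrial region chrM:10862-11490. The promoter of Dnpep, an aspartyl aminopeptidase, had -0.794 with 2162 reads, and 231 to 293 scaled CPM over the 6 samples (adjusted p = 0.565). An exon of Cerk, the ceramide kinase, had -0.758 with 69 reads. The promoter of Mt1, a metallothionein that binds zinc, had -0.700 with 70 and 127 reads in SST, 113 and 71 in PV, and 85 and 116 in VIP. Its classes overlapped, with an adjusted p of 0.972 for any difference.

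The most even nonconserved regions with many reads lay near gene starts. Beside the start of Tdrd3, a Tudor domain protein, chr14:87415645-87416411 had between 239 and 298 scaled CPM. At Fancl, a ubiquitin ligase of the Fanconi anaemia pathway, chr11:26386985-26387775 had 206 to 251. For both the adjusted p for any difference was above 0.05, at 0.860 and 0.989.

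Regions close to the thresholds are given as examples, and whether the number of regions changes there was not tested. At a MeanCons of exactly 0 lay the 167 regions with at least 60 reads that belonged to neither class. Just inside, an intronic region of Dab2ip had a MeanCons of -5.81e-05 with 87 reads and an intergenic region near Tns3 had -0.000123 with 88. Just outside, a region near D1Pas1 had 2.60e-10 with 103 reads and an exon of Itgb4 had 1.00e-05 with 95. Regions of 60 reads near Lmo7 and Ccdc70 were in, and regions of 59 reads near Pou3f3 and in Sbf2 were out.

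Marker genes were tied to small numbers of nonconserved regions, to be read against 21.2% of all regions with 60 reads. Of the 24 regions with 60 reads in or within 10 kb of the start of 12 SST genes, 5 were nonconserved, or 20.8%, beside 10 conserved. The counts were 4 of 31 for 10 PV genes (12.9%), 2 of 16 for 12 VIP genes (12.5%), 5 of 28 for 9 genes of GABA neurons (17.9%) and 3 of 22 for 9 excitatory genes (13.6%). For 11 glial and vessel genes it was 11 of 24, or 45.8%, with no conserved region. The median fitted log2 difference of the SST regions in SST was 0.61, of the PV regions in PV 0.50 and of the VIP regions in VIP 3.76, over all tested regions 0.06, 0.01 and -0.05. Of the 5 SST regions 1 was higher in SST, beside 8.15% of all tested regions. Of the 4 PV regions 1 was higher in PV, beside 17.1%. Both VIP regions were higher in VIP, beside 24.9%, but reached 60 reads only through VIP. The rule thus in part fixed their calls and their median, which rests on differences of 5.84 and 1.68. Of the 11 glial and vessel regions 4 were higher in VIP, beside the same 24.9%, and 3 lower in PV, beside 11.7%.

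In the SST list, an intron of Elfn1, which encodes a postsynaptic protein at excitatory inputs of SST cells, held chr5:139931735-139932666. It had 34 and 47 reads in SST, 10 and 9 in PV, and 23 and 24 in VIP, and SST was higher by 1.38 ± 0.31 (SE) on the log2 scale (adjusted p = 0.00646 in edgeR's test). The start of Npy, the neuropeptide Y gene, had 49 and 34 reads in SST, 13 and 21 in PV, and 23 and 31 in VIP, with SST above but short of the threshold (adjusted p = 0.0702). A region 6912 bp from the start of Sst itself had 25 and 23 reads in SST, 34 and 33 in PV, and 22 and 24 in VIP. There PV and not SST had most, with an adjusted p of 0.151 for any difference.

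In the PV list, an intron of Syt2, a synaptotagmin of fast release, had 22 and 26 reads in SST, 26 and 11 in PV, and 5 and 8 in VIP, and was lower in VIP by -1.80 ± 0.45 (SE; adjusted p = 0.00351).

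In the VIP list, a region 8471 bp from the start of Sp8, a factor of caudal ganglionic lineages, had 39 and 34 reads in VIP, 10 and 7 in SST, and 9 and 16 in PV, and VIP was higher by 1.68 ± 0.36 (SE; adjusted p = 0.00103). Near Neurod6, a gene of excitatory neurons, chr6:55676664-55677418 had 46 and 34 reads in PV, 26 and 25 in SST, and 23 and 9 in VIP, with PV higher by 1.14 ± 0.35 (SE; adjusted p = 0.0206). Of the 3 nonconserved regions of the excitatory list only this 1 was called higher in PV, beside 17.1% of all tested regions. The median difference of the 3 in PV was -0.24. In an exon of Pdgfra, a receptor of oligodendrocyte precursors, chr5:75156029-75156792 had 74 and 97 reads in VIP, 20 and 33 in SST, and 22 and 24 in PV. VIP was higher by 1.66 ± 0.26 (SE; adjusted p = 7.66e-05), and this region holds a CTCF core.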

How the data were processed

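Reads of ATAC-Seq were analysed in 6 samples. The authors trimmed reads with Trimmomatic 0.33, aligned them to mm10 (GRCm38) with Subread 1.4.6-p3, removed duplicates with SAMtools, and called peaks with MACS2 and HOMER per sample, keeping those called by both. The deposited counts are reads per reference region by featureCounts, without normalization, and the reference regions were merged from these and other cortical datasets. The deposited conservation score, MeanCons, is the authors' mean placental phyloP per region. The deposited peak lists give −log10 q-values. The deposited 0 and 1 marks of peaks, the snRNA counts and the authors' table of GREs with specificity values were not used. Removal of blacklisted regions is stated for the browser tracks, not for the counts.

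Counts were tested with edgeR 4.0.16 (TMM, filterByExpr, quasi-likelihood) in R 4.3.3, over all 6 samples without covariates, for any difference among classes and for each class against the mean of the other 2, with Benjamini-Hochberg adjustment over 40338 regions. The standard error was taken from the fitted difference and its F value and is approximate. Tested on simulated counts for 40338 regions, the SST contrast found 68.5% of the 200 regions given a log2 change of 2, and made 6 false calls. All regions and classes were simulated with the same spread, whereas SST replicates in the data differed more than the others. The rate of false calls in the data was therefore not measured. Positions used protein-coding genes of GENCODE M21, and sequences are from the RefSeq GRCm38 assembly, read with python 3.11.15 and overlapped with bedtools 2.31.1. Scaled CPM divide reads by the TMM library size over tested regions. Depth was 1801883 to 2256073 reads per sample on reference regions, and the minimum of 60 reads over 6 samples was part of the rule for members. Intervals are exact, at 95%, and cover counting error only. Nothing was tested between groups of regions, which are not replicates. DESeq2 1.42.0, other scalings, thresholds, a GC correction, a replicate block and fits without each sample were run as alternatives.

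The regions named are the 8 with most reads, the 6 with the largest difference in each class among those called whose samples do not overlap with the others, the 4 with the lowest MeanCons, those at the thresholds, the 3 with most reads per marker list and the 3 most even, and a selection of these is described; some are not reported here. Regions shown as sequence, and the motifs tabulated for subtype calls, were picked after values were seen. The members and lists were chosen with earlier results of these data known. Regions on chromosome 18 were counted and not named.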

Additional observations from a re-analysis of the deposited data

How the results depend on the processing

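Counts of nonconserved regions are given as any difference, SST higher and lower, PV higher and lower, and VIP higher and lower, where they moved by over 1.5 times. With DESeq2's test they were 1738, 109, 92, 350, 345 and, for VIP lower, 830. Any difference was then found in 27.7% of nonconserved, 27.3% of conserved and 30.6% of all tested regions, and VIP lower in 13.2% against 10.4%. Without the filter the counts were 1227, 48, 21, 91, 84 and, for VIP lower, 379. Any difference was then found in 19.5% of nonconserved, 20.9% of conserved and 3.43% of all tested regions, and VIP lower in 6.04% against 5.32%. At a false discovery rate of 1% the counts were 1844, 178, 124, 454, 319 and, for VIP lower, 862, with any difference in 28.4% of conserved regions. With at least 30 reads any difference, SST higher and PV higher rose to 4288, 660 and 1443 of 12922 regions, with 33.4% of conserved regions. With at least 120 reads the 7 counts were 1522, 181, 122, 473, 540, 719 and 767 of 3405. The conserved share with any difference was then 43.8%. With MeanCons below -0.1 the counts were 1155, 160, 114, 356, 336, 571 and 541 of 2608, and that share was 44.3%. Counts are fewer by construction in both. For the 1% rate and these thresholds, conserved shares by direction are not given. The counts by direction there are thus no result about nonconserved regions. Without each replicate in turn, any difference ran from 1977 to 3769, SST higher from 314 to 719, SST lower from 223 to 368, PV higher from 328 to 1291, PV lower from 288 to 1437, VIP higher from 977 to 1911, VIP lower from 673 to 1704, and the conserved share from 31.1% to 59.2%. Apart from the changes by construction, the cause was not tested. DESeq2 size factors, the GC correction and the autosomes alone moved no count by over 1.5 times.

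Replicate numbers did not pair the samples (correlations of deviations -0.0366 to 0.0297). The fit with a replicate block gave 2785 regions with any difference, and 2765 with GC correction as well, and moved none of the 7 counts by over 1.5 times.

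The share of reads, against nonconserved and conserved regions together, kept its sign in each fit without a replicate, from -2.89 to -2.62 points in VIP, 0.94 to 1.95 in PV and 0.81 to 1.87 in SST. With all reads as denominator it was 0.40 in VIP and -0.70 in PV, both reversed.

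Nonconserved against conserved regions near a start were 42.5% and 49.8% within 2 kb, 45.4% and 51.9% with all annotated genes, 23.3% and 28.3% with at least 30 reads, 60.4% and 64.3% with at least 120, 44.8% and 48.2% with MeanCons below -0.1, and 45.6% and 56.8% with starts of all coding transcripts, which was added after the data were seen. The nonconserved share was the lower in each of these 6.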

Other observations

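Reads on all regions of the Y chromosome were 541 and 623 in SST, 469 and 489 in PV, and 404 and 262 in VIP, and those on the mitochondrial regions were 4501 and 10984, 5479 and 8361, and 6354 and 3534. The mitochondrial reads differed more between replicates of SST than between the class means.

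Combinations of calls in nonconserved regions were led by PV higher with VIP lower, in 638 regions or 10.2% against 8.45% of conserved regions at equal reads, and by PV lower with VIP higher, in 598 or 9.52% against 10.9%. Regions called lower in VIP and in no other contrast were 472, or 7.52% against 5.81%. Those called higher in VIP alone were 497, or 7.91% against 9.55%.

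Fitted differences of more than 1 on the log2 scale in VIP were found in 2222 nonconserved regions, or 35.4% against 33.1%.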
